A study of Mus musculus with 17 samples.

Results

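Genes that attach meiotic telomeres to the nuclear envelope, or build the envelope they attach to, were followed in spermatocytes and newborn testes of mice lacking Pld6, Dnmt3l or both. The 10 genes were taken by name from the 23980 genes listed in each of 2 expression tables, and all 10 passed the filter on low counts at both stages, Ccdc79 at P0 only through mutant libraries. They are Sun1, Sun2, Ccdc155, Ccdc79, Spdya, Cdk2, Terf1, Terf2, Lmna and Lmnb1.

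Poly(A) RNA was sequenced in 6 libraries of leptotene/zygotene (L/Z) spermatocytes sorted from testes of mice 3 to 4 weeks old, in which wild-type animals (WT), Pld6 KO animals and Dnmt3l KO animals (labelled Dnmt3L KO) gave 2 libraries each. Whole newborn testes (P0, postnatal day 0) gave the other 11 libraries, 2 for WT, 4 for Pld6 KO, 2 for Dnmt3l KO and 3 for the knockout of both genes (DKO). The strain of every group was labelled C57BL6/J. Pld6 encodes an outer mitochondrial membrane protein needed to make piRNAs, and Dnmt3l encodes a cofactor of the de novo DNA methyltransferases. By the study's methods, germ cells of both single mutants do not pass the zygotene stage, whereas WT testes of this age also hold later spermatocytes and spermatids, so the sorted cells came from testes of different composition.

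In early meiosis, telomeres bind the inner face of the nuclear envelope and are moved along it, which helps homologous chromosomes to find each other. The shelterin proteins TERF1 and TERF2 cover telomeric DNA. TERB1 (listed as Ccdc79), with TERB2 and MAJIN, ties the telomere to the inner nuclear membrane. SUN1 and SUN2 span that membrane and bind KASH5 (listed as Ccdc155) in the outer membrane, and KASH5 recruits dynein; this bridge is a LINC complex. The kinase CDK2 sits at meiotic telomeres with its activator Speedy A (Spdya), and lamins line the inner face of the envelope.

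The 3 genes whose products act mainly in meiosis, Ccdc79, Spdya and Ccdc155, were the ones with the widest gap between stages (below), and the upstream bases of their annotated starts are shown for that reason. The sequences are RefSeq promoter entries on GRCm38.p6, each the 100 bases before a listed start, 5′ to 3′ on the strand of the gene. A listed start need not be the outer end of the gene span given with the positions: the Spdya window lies wholly inside that span, with its start 25166 bases from the outer end, and 27 bases of the Ccdc155 window lie inside its span. Capitals mark the letters TCCCGC, the core of a site read by E2F proteins, searched on both strands.

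Ccdc79, chr8:104509888-104509987, minus strand: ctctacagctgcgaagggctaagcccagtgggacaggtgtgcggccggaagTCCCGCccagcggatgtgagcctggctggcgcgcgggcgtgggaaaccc
Spdya, chr17:71551961-71552060, plus strand: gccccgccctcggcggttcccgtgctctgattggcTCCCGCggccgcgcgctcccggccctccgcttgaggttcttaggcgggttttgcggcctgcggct
Ccdc155, chr7:45204893-45204992, minus strand: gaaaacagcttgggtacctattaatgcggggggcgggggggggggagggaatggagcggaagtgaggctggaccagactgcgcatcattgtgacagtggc

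Over the 250 bases before the start, TCCCGC stood in the windows of Ccdc79, Spdya, Cdk2 and 1 of the 2 listed starts of Sun1. It stood in 16.9% of the 32851 windows of the same length in the RefSeq table. It was not found in the windows of Ccdc155, Sun2, Terf2 or Lmna. CACGTG, the E-box read by MAX and its partners, and TGACGTCA, the full cAMP response element, were found in none of the 11 windows of these genes and in 6.02% and 1.55% of all windows. The windows held 33 CpG sites for Spdya, 13 for Ccdc79 and 9 for Ccdc155, beside a median of 6 over all windows. Those of the other genes held 31 for Sun2, 21 for Cdk2, 11 for Terf2, 30 and 1 for Sun1, and 1 and 4 for Lmna. Both Lmna windows, the second Sun1 window and 73 bases of the first Sun1 window also lie inside the gene spans. These are matches of letters and were not tested for binding or for methylation. Terf1 and Lmnb1 were not analysed here for promoter sequence.

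All 10 genes are protein-coding. On GRCm38.p6, Sun1 lies at chr5:139200564-139249839, Sun2 at chr15:79724068-79742536, Ccdc155 at chr7:45183619-45204919, Ccdc79 at chr8:104446718-104509887 and Spdya at chr17:71526895-71589533. Cdk2 lies at chr10:128697938-128705051, Terf1 at chr1:15805546-15844052, Terf2 at chr8:107069400-107096548, Lmna at chr3:88481148-88509932 and Lmnb1 at chr18:56707813-56753424. Exons of Spdya overlap a pseudogene on the same strand (Mettl4-ps1) and Trmt61b on the other strand, and exons of Cdk2 overlap Pmel on the other strand. Exons of Sun1 and Sun2 overlap an antisense gene each (4930520M14Rik and Gm16575). The library kit keeps strand, but whether the counting used it is not given in the sources used here, so a share of these genes' fragments could come from the overlapping gene.

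The L/Z libraries held 5194238 to 14578341 fragments and the P0 libraries 9900346 to 23498968. Ribosomal RNA (Rn45s) took 8.27% of the first WT and 8.06% of the first Pld6 KO library of L/Z spermatocytes and 0.134% to 0.301% of the other 4. Pld6 had 0 fragments in both Pld6 KO libraries of L/Z spermatocytes and 0 to 2 in the Pld6 KO and DKO libraries of P0 testes, beside 21 to 352 in all other libraries. Dnmt3l had 0 fragments in both Dnmt3l KO libraries of L/Z spermatocytes, beside 6 to 19 in the other 4, and 0 to 3 in the Dnmt3l KO and DKO libraries of P0 testes, beside 6 to 145 in the others. The summed level of 10 markers of L/Z spermatocytes (such as Sycp1, Sycp3 and Dmc1) was 2704 to 8948 CPM (counts divided by effective library size) in the sorted cells and 74.2 to 285 CPM in P0 testes, where meiosis has not begun. All 6 Sertoli cell markers were detected in every sorted library, with a sum of 88.6 to 516 CPM.

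How abundant the genes were was first compared per length, as FPKM (fragments divided by both the length of the transcript and the depth of the library) in WT. In WT L/Z spermatocytes Cdk2 was highest, at 67.5 ± 8.77 FPKM (mean ± SD, n = 2 for each WT value), followed by Sun1 at 61.3 ± 18.9 and Lmnb1 at 48.0 ± 1.08. Ccdc155, Terf1, Terf2, Spdya and Sun2 stood close together between 24.5 and 29.3 FPKM, then Ccdc79 at 14.1 ± 6.59 and Lmna at 9.59 ± 2.38. The ranges of neighbours in this order overlapped, except between Lmnb1 and Ccdc155 and between Sun2 and Ccdc79.

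**Figure D1:**
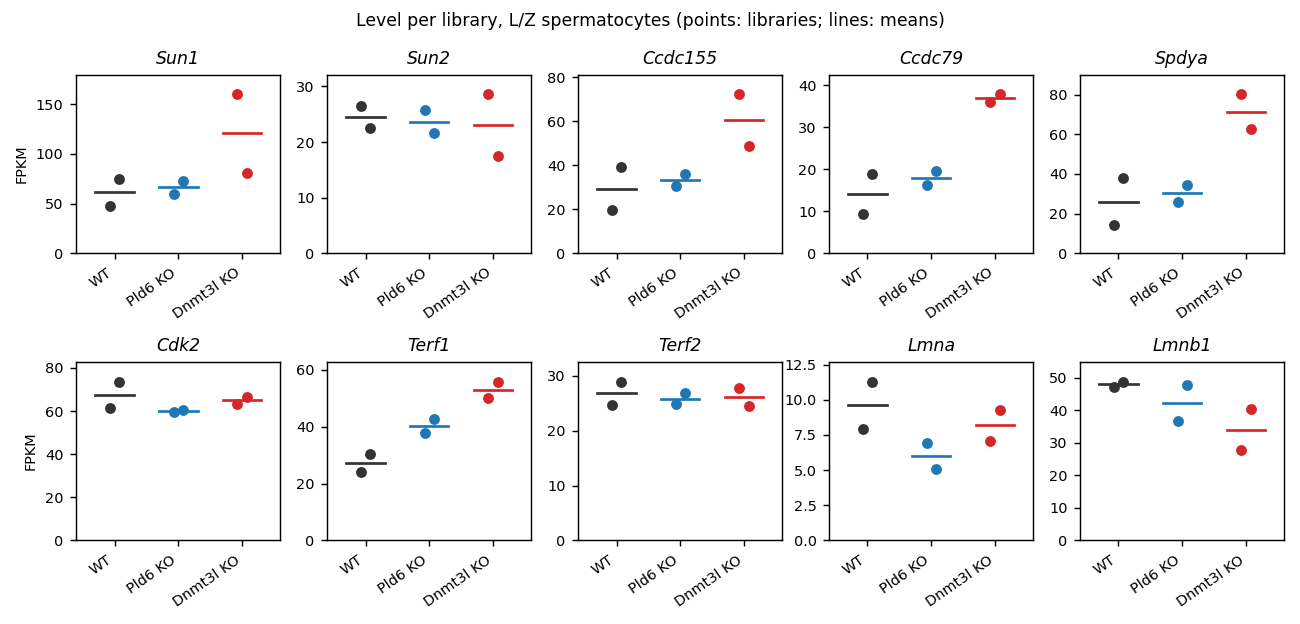
FPKM of each of the 10 genes in the 6 L/Z libraries, with 1 panel per gene and its own axis from 0; points are libraries and lines are group means. Both Dnmt3l KO libraries lie above all 4 others for Ccdc79, at 36.1 and 37.8 FPKM, whereas the groups share their range for Terf2 and Sun2.

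In WT P0 testes the order was another one. Lmnb1 led at 80.8 ± 8.54 FPKM, before Cdk2 at 62.1 ± 6.39 and Lmna at 32.9 ± 3.29, and no neighbours overlapped in their 2 libraries. The meiotic genes were last, with Spdya at 0.917 ± 0.209, Ccdc155 at 0.611 ± 0.0594 and Ccdc79 at 0.120 ± 0.0424 FPKM. Side by side, the WT means at L/Z were 118 times those at P0 for Ccdc79, 48.0 times for Ccdc155 and 28.4 times for Spdya. They were 2.99 times for Terf1, 2.15 times for Sun1 and 1.70 times for Sun2, while Cdk2 and Terf2 overlapped between the stages. Lmna and Lmnb1 stood the other way, with P0 means 3.43 and 1.68 times those at L/Z. The 2 tables were scaled separately and differ in tissue, read length, single-end (L/Z) or paired-end (P0) reads and RNA input, so these ratios carry no test.

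The comparison of Dnmt3l KO with WT L/Z spermatocytes asks how these genes differ in early meiosis when the methylation cofactor is missing. Ccdc79, Spdya and Terf1 rose, by 2.62-fold, 2.75-fold and 1.94-fold. Sun1 and Ccdc155 were also higher in both Dnmt3l KO libraries than in either WT library but did not pass the test. Sun2, Cdk2, Terf2 and Lmna overlapped between the groups, and Lmnb1 was lower in both Dnmt3l KO libraries without passing the test.

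Ccdc79, which encodes the telomere anchor TERB1, measured 26.0 and 51.8 CPM in the WT pair, 44.8 and 54.5 in the Pld6 KO pair and 97.8 and 106 in the Dnmt3l KO pair. Its fragments numbered 307 and 609, 308 and 691, and 489 and 1476. The Dnmt3l KO libraries were the 2 highest, and the WT and Pld6 KO libraries overlapped. The log2 fold change of Dnmt3l KO over WT was 1.39 (SE 0.30; adjusted p = 0.0251, edgeR's quasi-likelihood test with Benjamini-Hochberg adjustment over 14662 genes).

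Spdya, the activator of CDK2, measured 21.4 and 61.3 CPM in the WT pair, 41.4 and 56.4 in the Pld6 KO pair and 126 and 101 in the Dnmt3l KO pair. Both Dnmt3l KO libraries again stood above the other 4, and the first WT library was the lowest of all. Its log2 fold change was 1.46 (SE 0.39; adjusted p = 0.0485 in edgeR). Cdk2 itself, the kinase that Speedy A activates, measured 129 and 156 CPM in the WT pair, 126 and 129 in the Pld6 KO pair and 132 and 143 in the Dnmt3l KO pair. The Dnmt3l KO libraries lay between the 2 WT libraries, and the 95% interval of the log2 fold change was -0.49 to 0.38.

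Among the shelterin genes, Terf1 measured 49.8 and 62.6 CPM in the WT pair, 77.1 and 87.1 in the Pld6 KO pair and 102 and 116 in the Dnmt3l KO pair. The 3 groups did not overlap. Its log2 fold change in Dnmt3l KO was 0.96 (SE 0.22; adjusted p = 0.0285 in edgeR), which stays under 2-fold. Terf2, its partner in shelterin, measured 59.1 and 69.9 CPM in WT and 65.6 and 59.3 in Dnmt3l KO, with an interval of -0.52 to 0.42.

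The LINC genes differed among themselves. Sun1 measured 182 and 275 CPM in the WT pair, 224 and 270 in the Pld6 KO pair and 569 and 301 in the Dnmt3l KO pair. The first Dnmt3l KO library stood far above the second, and the log2 fold change was 0.92 (SE 0.31; adjusted p = 0.0936 in edgeR). Ccdc155, which encodes the dynein-binding KASH5, measured 39.3 and 79.1 CPM in the WT pair, 61.1 and 73.4 in the Pld6 KO pair and 143 and 99.9 in the Dnmt3l KO pair, with a log2 fold change of 1.03 (SE 0.31; adjusted p = 0.0700 in edgeR). Sun2 measured 95.3 and 81.1 CPM in WT and 100.4 and 63.8 in Dnmt3l KO, with an interval of -0.66 to 0.43.

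The lamins gave no call. Lmna, which encodes the A-type lamins, measured 14.3 and 18.4 CPM in the WT pair, 13.5 and 8.60 in the Pld6 KO pair and 11.4 and 15.5 in the Dnmt3l KO pair. Lmnb1 measured 125 and 129.5 CPM in the WT pair, 96.7 and 128 in the Pld6 KO pair and 72.0 and 109 in the Dnmt3l KO pair, with a log2 fold change of -0.49 in Dnmt3l KO (SE 0.24; adjusted p = 0.219 in edgeR).

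By count, 2 of the 10 genes passed an adjusted p of 0.05 with over 2-fold change, beside 5.47% of all genes tested, and 3 passed at any fold, beside 7.2%. Of the 10, 5 were higher without overlap, beside 28.1% of all genes, and 1 was lower without overlap, beside 27.5%. The median log2 fold change of the 10 was 0.44, beside -0.04 over all genes. The calls of Ccdc79 and Spdya were lost without the first WT library (log2 fold changes 0.97 and 0.89, adjusted p = 0.107 and 0.149 in edgeR), without the first Dnmt3l KO library (1.43 and 1.28, adjusted p = 0.158 and 0.274) or without the second (1.33 and 1.61, adjusted p = 0.0826 and 0.105), and Terf1 was lost in the same 3 fits. Without both Rn45s-rich libraries, 0 members passed in edgeR, with Ccdc79 at 0.97 (adjusted p = 0.113), Spdya at 0.88 (adjusted p = 0.155) and Terf1 at 0.80 (adjusted p = 0.215). DESeq2 called 5 at any fold, adding Sun1 (adjusted p = 0.0206) and Ccdc155 (adjusted p = 0.0135), and limma on FPKM called Ccdc79 and Terf1. With an offset for GC content and length, 1 member passed, Ccdc155 at 1.47 (adjusted p = 0.0373 in edgeR), while Ccdc79 was at 0.91, Spdya at 1.04 and Terf1 at 0.34 without passing. The longest transcripts of the 3 called genes are poor in GC, at 39.5% for Ccdc79 (percentile 8.76 of all genes), 39.9% for Spdya (percentile 10) and 36.5% for Terf1 (percentile 2.5), and that of Ccdc155 is rich in it, at 58.2% (percentile 91.4).

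Most markers of the sorted stage moved in the same direction. Of the 10 L/Z spermatocyte markers, 6 rose over 2-fold in Dnmt3l KO, beside 570 of all 14662 genes, and 4 did not pass. Meiob, Hormad1 and Dmc1 were among the 6. Of the 10, 9 were above 0 on the log2 scale and 1 was below, and none had 0 fragments in any L/Z library. They summed to 2704 and 4544 CPM (WT), 3421 and 5033 CPM (Pld6 KO) and 8948 and 8226 CPM (Dnmt3l KO). The summed level of 10 markers of later germ cells was 49.5 to 71.8 CPM (WT), 17.2 to 32.8 CPM (Pld6 KO) and 14.2 to 19.4 CPM (Dnmt3l KO), with 2 to 4 of them at 0 per library, and Piwil1 among them fell. The 7 spermatogonial markers summed to 1828 to 1861 CPM (WT), 1540 to 1621 CPM (Pld6 KO) and 918 to 1565 CPM (Dnmt3l KO), and Sohlh1 among them fell. The 10 prospermatogonial and other germ cell markers summed to 2667 to 3374 CPM (WT), 2762 to 3601 CPM (Pld6 KO) and 4302 to 4503 CPM (Dnmt3l KO). Their median log2 fold change in Dnmt3l KO was -0.25, with 5 of the 10 above 0 and 0 called. The 5 Leydig cell markers summed to 13.7 to 17.9 CPM (WT), 7.57 to 10.5 CPM (Pld6 KO) and 6.3 to 6.6 CPM (Dnmt3l KO). The 6 Sertoli cell markers summed to 325 to 516 CPM (WT), 325 to 485 CPM (Pld6 KO) and 88.6 to 316 CPM (Dnmt3l KO), and 0 of the 6 passed in edgeR. At an unadjusted p under 0.05 for Dnmt3l KO against WT stood 3 of the 6, beside 3920 of all 14662 genes. In sorted cells, as in the whole testes below, a different share of cells of a stage and a different amount of RNA per cell cannot be told apart.

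Set against the marker sum of its own library, Ccdc79 came to 0.962% and 1.14% for WT, 1.31% and 1.08% for Pld6 KO, then 1.09% and 1.28% for Dnmt3l KO. Spdya came to 0.793% and 1.35%, 1.21% and 1.12%, and 1.41% and 1.23% in the same order, and Ccdc155 to 1.45% and 1.74%, 1.78% and 1.46%, and 1.60% and 1.21%. On this scale the 3 genotypes overlapped for Ccdc79 and Ccdc155, and for Spdya the first Dnmt3l KO library was just above the rest. Terf1 came to 1.84% and 1.38% for WT, 2.25% and 1.73% for Pld6 KO, then 1.14% and 1.41% for Dnmt3l KO, so that against the markers it was not higher in Dnmt3l KO than in WT and its highest library was a Pld6 KO one. Cdk2 came to 4.79% and 3.43% in WT and 1.48% and 1.74% in Dnmt3l KO, and Terf2 to 2.19% and 1.54% and 0.733% and 0.720%, so that both genes were lower against the markers in Dnmt3l KO than in WT. Sun2, Lmna and Lmnb1 were lower in the same way, with Sun2 at 3.52% and 1.78% in WT and 1.12% and 0.775% in Dnmt3l KO. Sun1 came to 6.74% and 6.05% for WT, 6.54% and 5.36% for Pld6 KO, then 6.35% and 3.65% for Dnmt3l KO. Neither Dnmt3l KO library exceeded the first WT library for Sun1. The marker sum is higher in Dnmt3l KO, so a gene whose CPM does not change is lower on this scale. The part of the markers in the differences above was not tested.

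**Figure D2:**
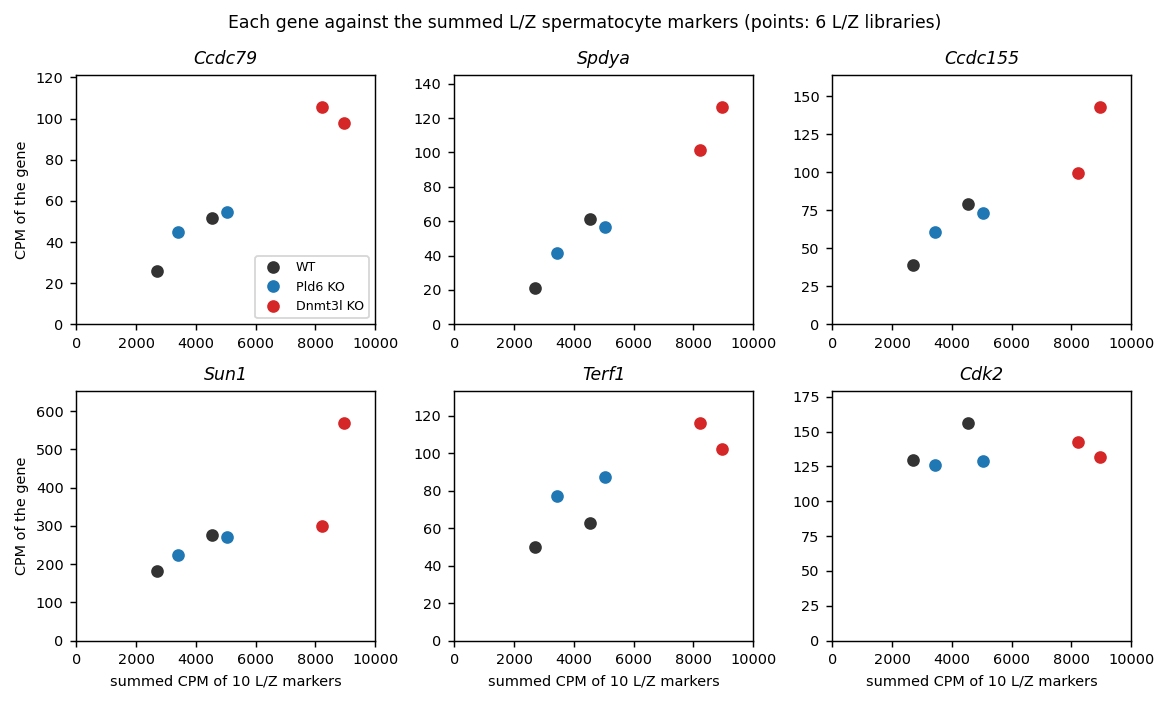
CPM of 6 of the genes (vertical axes from 0) against the summed CPM of the 10 L/Z spermatocyte markers (horizontal axes from 0), 1 point per L/Z library, coloured by genotype. The first WT library has the lowest marker sum, 2704 CPM, and the lowest Ccdc79, Spdya, Ccdc155, Sun1 and Terf1, and the Dnmt3l KO libraries stand to the right, while Cdk2 stays between 126 and 156 CPM.

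Pld6 KO L/Z spermatocytes, which lack piRNA production through Pld6, differed less from WT than Dnmt3l KO ones for Ccdc79, Spdya, Ccdc155, Sun1, Terf1 and Lmnb1. For Lmna and Cdk2 they differed more, as Dnmt3l KO was at -0.27 and -0.05. Terf1 was higher in both Pld6 KO libraries than in both WT libraries, with a log2 fold change of 0.55 (SE 0.21; adjusted p = 0.487 in edgeR). Lmna, at -0.58 (SE 0.33; adjusted p = 0.611), and Cdk2, at -0.16 (SE 0.20; adjusted p = 0.826), were lower without overlap. Ccdc79 and Spdya were at 0.35 and 0.25, with intervals of -0.30 to 1.01 and -0.61 to 1.1. The first WT library bore on both directions: without it Ccdc79 was at -0.06 and Spdya at -0.32, and without the second WT library they were at 0.94 and 1.2, none past the test. In edgeR 0 of the 10 genes passed, beside 0.225% of all genes, and 0 passed in DESeq2 and in limma. At an unadjusted p under 0.05 in edgeR stood 1 of the 10, beside 1345 of all 14662 genes. The 1 gene higher and the 2 genes lower without overlap stood beside 21.6% and 21.3% of all genes.

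Between the mutants, 6 of the 10 genes were higher in both Dnmt3l KO libraries than in both Pld6 KO libraries, beside 26.9% of all genes, and 0 were lower, beside 26.2%. The log2 fold changes were 1.21 for Spdya (SE 0.39), 1.03 for Ccdc79 (SE 0.30), 0.85 for Ccdc155 (SE 0.31), 0.81 for Sun1 (SE 0.31), 0.41 for Terf1 (SE 0.21) and 0.11 for Cdk2 (SE 0.20). In edgeR 0 of 10 passed, beside 0.0477% of all genes, and the smallest adjusted p was 0.159, for Ccdc79. An unadjusted p under 0.05 was reached by 4 of the 10, beside 2567 of all 14662 genes. DESeq2 called 2, Ccdc79 (adjusted p = 0.030) and Spdya (adjusted p = 0.0363), and limma 0. The same 2 genes passed in edgeR fitted on the 2 mutant groups alone (adjusted p = 0.0436 and 0.0396) and in both fits that left out 1 WT library. With a factor for the Rn45s-rich libraries, Ccdc79 and Spdya fell to 0.72 and 0.73 (adjusted p = 0.318 and 0.373 in edgeR). With the GC and length offset they were at 0.77 and 0.88 (adjusted p = 0.217 and 0.253 in edgeR). That offset put Terf1 at 0.06. Without the first Pld6 KO library Ccdc79 and Spdya were at 0.9 and 1.01. The L/Z comparisons share libraries, so their values are not independent.

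**Figure D3:**
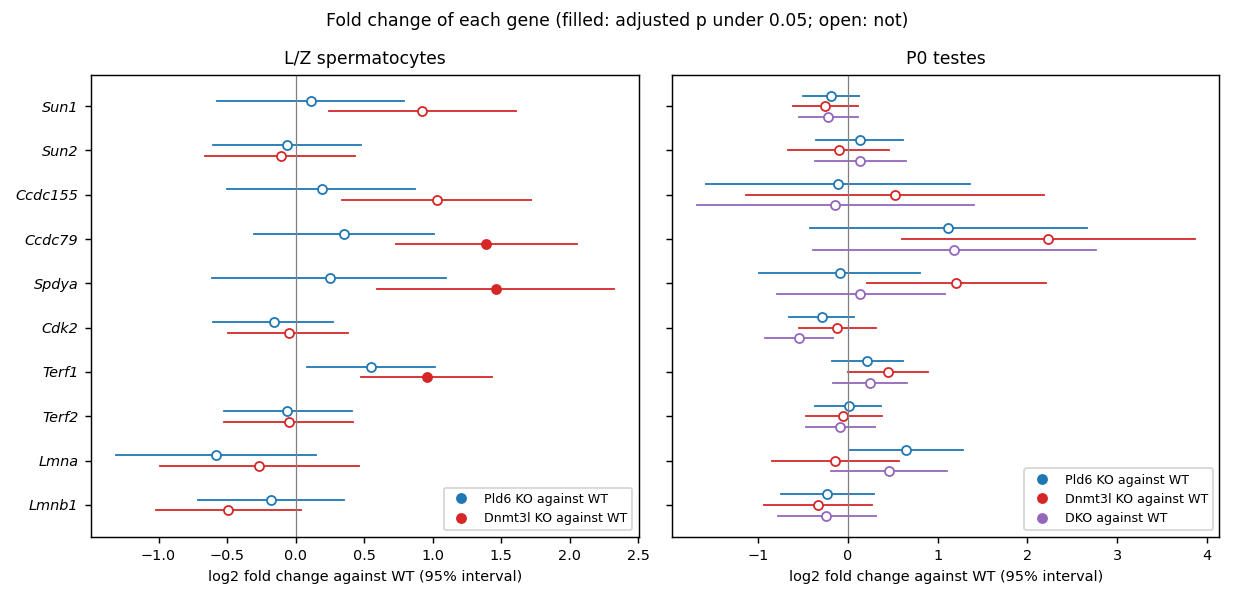
Log2 fold change over WT of each gene (rows) with its 95% interval, at L/Z on the left and P0 on the right, coloured by mutant; filled points passed an adjusted p of 0.05 in edgeR. Filled points are Ccdc79, Spdya and Terf1 in Dnmt3l KO L/Z spermatocytes, and the intervals at P0 are widest for Ccdc79, tested there only through mutant libraries, and Ccdc155.

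The partners of these genes were followed in 4 lists. In Dnmt3l KO L/Z spermatocytes 5.47% of all genes were called over 2-fold and 7.2% at any fold, and the 1 call in each of 3 lists stood near those shares. Of 14 further telomere genes, 1 rose and 13 did not pass. It was Terb2 (listed as 4933406J08Rik), the partner of TERB1, which measured 8.47 and 16.2 CPM in the WT pair, 16.7 and 21.8 in the Pld6 KO pair and 39.0 and 42.2 in the Dnmt3l KO pair. Its log2 fold change was 1.72 (SE 0.33; adjusted p = 0.0182 in edgeR). It was lost without the first WT library (1.32, adjusted p = 0.0793), without either Dnmt3l KO library (1.76 and 1.66, adjusted p = 0.145 and 0.0612) and with the GC and length offset (1.21, adjusted p = 0.0521). Majin (listed as 1700123I01Rik), the membrane member of that complex, measured 12.6 and 25.8 CPM in WT and 38.6 and 29.8 in Dnmt3l KO, at 0.83 (SE 0.33; adjusted p = 0.143). Against the marker sum, Terb2 came to 0.313% and 0.357% for WT, 0.489% and 0.432% for Pld6 KO, then 0.436% and 0.512% for Dnmt3l KO. The most abundant telomere genes in WT, the shelterin genes Tinf2 (90.4 FPKM) and Acd (43.3 FPKM), were at 0.13 and -0.08. The list's median was 0.00, beside -0.04 over all genes.

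Of 12 partners of CDK2, 1 rose and 11 did not pass, with a median of -0.35. Ccne2, which encodes cyclin E2, measured 49.1 and 56.1 CPM in the WT pair, 84.5 and 109 in the Pld6 KO pair and 134 and 145 in the Dnmt3l KO pair, with a log2 fold change of 1.41 (SE 0.22; adjusted p = 0.00871 in edgeR). The 3 genotypes did not overlap in CPM. Against the marker sum, Ccne2 came to 1.82% and 1.23% for WT, 2.47% and 2.17% for Pld6 KO, then 1.5% and 1.77% for Dnmt3l KO. On this scale Ccne2 in both Dnmt3l KO libraries lay between its WT values. It did not pass with the GC and length offset (0.78, adjusted p = 0.0605) or without the first Dnmt3l KO library (1.45, adjusted p = 0.0876). Its closest relative Ccne1 was at -0.43 (SE 0.29; adjusted p = 0.359), and the abundant Ccna2 and Cdk1 were at -0.29 and -0.27, neither past the test.

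Of 9 dynein genes, 1 passed at any fold, the intermediate chain gene Dync1i2 at 0.85 (SE 0.22; adjusted p = 0.0445 in edgeR), which was lost in 10 of the 15 other fits. The abundant Nudc and Dync1h1 were at -0.21 and -0.01, and the list's median was -0.21. Of 17 further nuclear envelope genes 14 were tested and 0 passed in edgeR, with a median of -0.04, and the abundant Banf1 and Emd were at -0.20 and 0.00. An unadjusted p under 0.05 was reached by 2 of the 14, beside 3920 of all 14662 genes. In the other comparisons, between the stages included, 0 genes of the 4 lists passed in edgeR. There 2 to 11 of the 49 or 50 tested had an unadjusted p under 0.05, beside 805 to 2841 of the 14662 to 16547 genes tested. The lists were not counted with the other tools.

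In P0 testes, germ cells are a minority beside Sertoli, Leydig and other somatic cells, and lamin, shelterin and CDK2 genes are used by many cell types. In edgeR 0 of the 10 genes passed at any fold in any comparison at this age. The background was 0.00629% of 15901 genes for Pld6 KO against WT, 0.0% for Dnmt3l KO against WT, 0.0126% for DKO against WT, 0.0% for DKO against Pld6 KO and 0.0818% for DKO against Dnmt3l KO. At an unadjusted p under 0.05 the members numbered 1, 2, 1, 0 and 2 in that order, beside 805, 2056, 1268, 957 and 2836 of the 15901 genes. Of the 2 for Dnmt3l KO against WT, 1 was Ccdc79, which has the limit given below. DESeq2 and limma called 0 of the members in all 5.

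Ccdc79 was at the edge of detection in newborn testes. Its fragments numbered 3 and 5 (WT), 7, 14, 9 and 5 (Pld6 KO), 30 and 7 (Dnmt3l KO) and 7, 7 and 24 (DKO). The gene passed the filter through the mutant libraries with the most fragments, and in 4 of the 5 comparisons at this age it was dropped when the compared groups were fitted alone. Its fitted log2 fold changes over WT, 1.12 in Pld6 KO (SE 0.72), 2.23 in Dnmt3l KO (SE 0.76) and 1.18 in DKO (SE 0.73), are therefore given as descriptions. Spdya fragments numbered 16 and 22 (WT), 21, 22, 14 and 13 (Pld6 KO), 56 and 29 (Dnmt3l KO) and 14, 30 and 37 (DKO). Both Dnmt3l KO libraries were above both WT libraries in CPM, with a log2 fold change of 1.21 (SE 0.47; adjusted p = 0.336 in edgeR), and DKO against Dnmt3l KO was at -1.06 (SE 0.41; adjusted p = 0.209). Ccdc155 fragments numbered 14 and 16 (WT), 12, 13, 25 and 5 (Pld6 KO), 37 and 5 (Dnmt3l KO) and 7, 15 and 35 (DKO), and its groups overlapped.

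The first Dnmt3l KO library of P0 testes stood apart for these genes, with the highest CPM of all 11 libraries for Ccdc79 (2.63), Spdya (4.91), Ccdc155 (3.24) and Terb2 (1.75). The same library had 285 CPM of summed L/Z spermatocyte markers, beside 74.2 to 192 in the other 10, and 87.5 CPM of summed later germ cell markers, beside 4.77 to 14.5. Their part in these values was not tested. Without that library the log2 fold changes of Dnmt3l KO over WT were 0.83 for Ccdc79 (SE 0.87), 0.64 for Spdya (SE 0.55) and -1.53 for Ccdc155 (SE 0.91), against 0.53 (SE 0.77) for Ccdc155 with it. Spdya was at -0.50 (SE 0.51) for DKO against Dnmt3l KO without it.

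**Figure D4:**
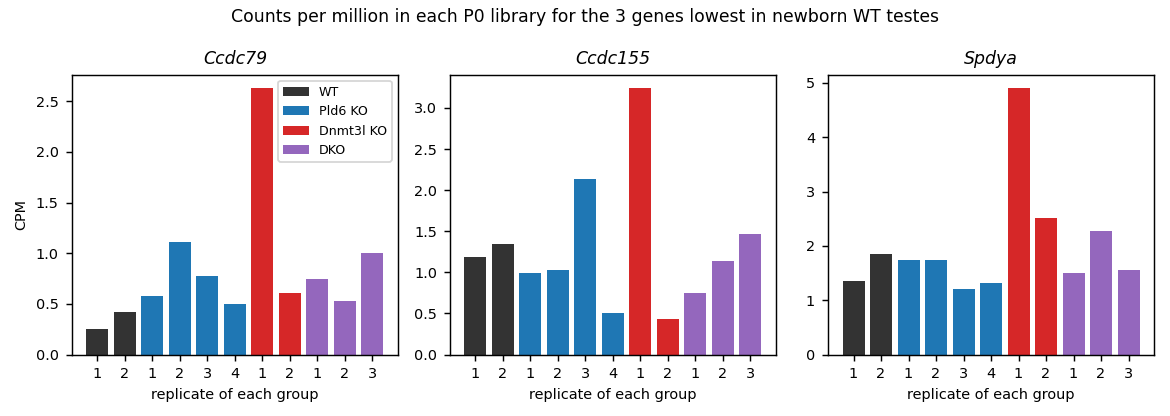
CPM of Ccdc79, Ccdc155 and Spdya in each of the 11 P0 libraries (bars from 0, ordered by group and replicate, coloured by genotype). The first Dnmt3l KO library is the highest bar in each panel, at 2.63, 3.24 and 4.91 CPM.

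The other 7 genes were well above background at P0. Sun1 measured 110.3 and 116 CPM (WT), 100.6, 107, 106 and 83.3 CPM (Pld6 KO), 97.7 and 92.5 CPM (Dnmt3l KO) and 102, 89.8 and 99.7 CPM (DKO). All 9 mutant libraries were below both WT libraries, by log2 fold changes of -0.19 (SE 0.14), -0.25 (SE 0.17) and -0.22 (SE 0.15), with adjusted p = 0.970, 0.532 and 0.763 in edgeR. The 3 comparisons share the same 2 WT libraries. The summed level of the 6 Sertoli cell markers lay the same way, at 3549 and 3249 CPM in WT. It was 2478 to 3233 CPM in the 9 mutant libraries. Not every marker was lower than in WT: 1 of the 6 was above 0 on the log2 scale for Pld6 KO and 2 for DKO. All 6 were below 0 for Dnmt3l KO, and 0 of the 6 passed in edgeR in these 3 comparisons. Their part in the Sun1 values was not tested.

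Cdk2 measured 127 and 144 CPM (WT), 122, 111, 124 and 87.0 CPM (Pld6 KO), 140.2 and 110.1 CPM (Dnmt3l KO) and 86.9, 99.2 and 93.5 CPM (DKO). The DKO libraries lay below both WT and both Dnmt3l KO libraries, with log2 fold changes of -0.54 (SE 0.18; adjusted p = 0.442 in edgeR) and -0.43 (SE 0.18; adjusted p = 0.245). Lmna measured 72.5 and 88.2 CPM (WT), 141, 107, 79.97 and 177 CPM (Pld6 KO), 56.9 and 89.3 CPM (Dnmt3l KO) and 141, 96.5 and 95.4 CPM (DKO). Pld6 KO replicates spanned the widest range of any group, and the log2 fold change of Pld6 KO was 0.65 (SE 0.29; adjusted p = 0.963). The summed level of 5 Leydig cell markers was 1503 to 1547 CPM (WT), 1688 to 3577 CPM (Pld6 KO), 1946 to 2642 CPM (Dnmt3l KO) and 1252 to 1725 CPM (DKO). The Pld6 KO library highest in Lmna was also highest in these markers. Other libraries went the other way: the Pld6 KO library second in Lmna, at 141 CPM, had the lowest marker sum of its group, 1688 CPM. The second Dnmt3l KO library had 2642 CPM of these markers with Lmna at 89.3 CPM. The part of these markers was not tested.

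Terf1 measured 18.8 and 19.9 CPM (WT), 20.1, 23.4, 23.3 and 23.2 CPM (Pld6 KO), 28.1 and 24.6 CPM (Dnmt3l KO) and 18.7, 23.4 and 26.7 CPM (DKO). All Pld6 KO and Dnmt3l KO libraries were above both WT libraries, with log2 fold changes of 0.22 (SE 0.18) and 0.45 (SE 0.21; adjusted p = 0.386 in edgeR). Sun2, Terf2 and Lmnb1 stayed within 0.33 of 0 on the log2 scale in the 3 comparisons with WT. By count, 4 of the 10 genes did not overlap between Pld6 KO and WT, beside 11.5% of all genes, 5 between Dnmt3l KO and WT, beside 49.6%, and 4 between DKO and WT, beside 29.0%. Ccdc79 is 1 of them each time.

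**Figure D5:**
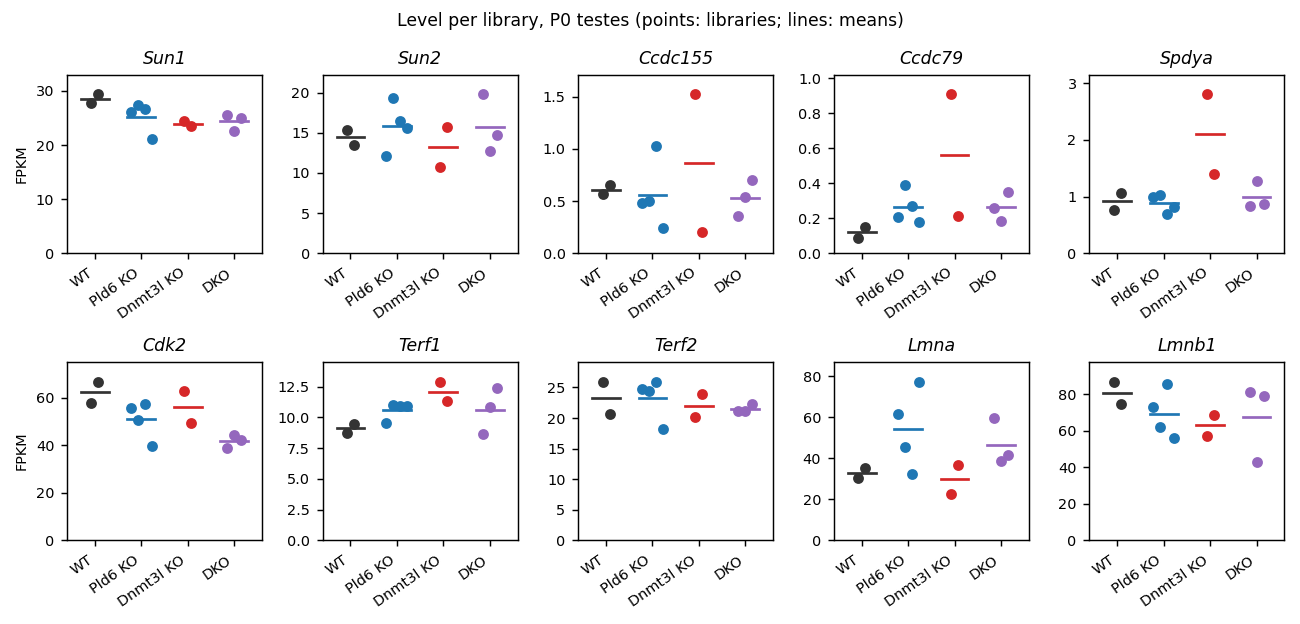
FPKM of each gene in the 11 P0 libraries, with 1 panel per gene and its own axis from 0; points are libraries and lines are group means. Ccdc155, Ccdc79 and Spdya stay under 3 FPKM, whereas Lmnb1 and Cdk2 lie between 38.9 and 86.9 FPKM.

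A departure of DKO from additive effects of the 2 mutations was tested with an interaction term. In edgeR 0 of the 10 genes passed, beside 0.0% of all genes, and 0 passed in DESeq2 and limma. At an unadjusted p under 0.05 in edgeR stood 1 of the 10, beside 1740 of 15901 genes. It was Ccdc79, at -2.17 (SE 0.94), which has the limit given above. Without the first Dnmt3l KO library that value was -0.77 (SE 0.99).

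Whether a mutant effect differed between L/Z spermatocytes and P0 testes was tested as the difference of the log2 fold changes over 16547 genes. In edgeR 0 members passed for Pld6 KO, beside 0.0121% of all genes, and 0 for Dnmt3l KO, beside 0.665%, and 0 in DESeq2 and limma. At an unadjusted p under 0.05 in edgeR stood 1 member each, beside 1575 genes for Pld6 KO and 2841 for Dnmt3l KO. For Pld6 KO it was Lmna, at -1.26 (SE 0.47; adjusted p = 0.444), and for Dnmt3l KO it was Sun1, at 1.14 (SE 0.36; adjusted p = 0.135), which was above WT at L/Z and below it at P0. Over the fits that left out 1 library, the Sun1 value ranged from 0.65 to 1.5. The highest came without the second Dnmt3l KO library of L/Z spermatocytes, which left 1 library in that group. That fit was the only 1 of 22 other fits in which Sun1 passed. For Ccdc79, called at L/Z and not at P0, the difference of the effects was -0.85 (SE 0.79). It is given as a description, because its P0 part rests on 3 and 5 WT fragments and cannot show whether the stages differ. For Spdya, also called at L/Z and not at P0, the difference was 0.24 (SE 0.62), so the 2 stages were not shown to differ. Single libraries set these values: without the first Dnmt3l KO library of P0 testes they were 0.53 and 0.78, without the second -1.53 and -0.15, and without the first or the second WT library of L/Z spermatocytes -1.22 and -0.30, or -0.35 and 1.1. None of these passed the test.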

How the data were processed

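The authors aligned reads with TopHat2 and ran Cuffdiff on mm10 RefSeq genes, without versions given in the sources used here. The libraries were made from 2 kinds of sample, with a stranded poly(A) kit, and read single-end at 50 bases (L/Z) or paired-end at 100 bases (P0). The deposited tables give, per gene and library, raw fragments (estimated counts, 97.7% to 97.8% of them whole within 1e-06) and FPKM scaled by the authors within a table. Genes not marked OK in every library (6 at L/Z, 2 at P0) were left out.

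Estimated counts were rounded, filtered by filterByExpr, scaled by TMM and tested with edgeR 4.0.16 (quasi-likelihood, R 4.3.3), with all groups of a stage in 1 fit. A call needed an adjusted p under 0.05 and over 2-fold change, or any fold where stated. CPM are TMM-scaled. Each SE is the log2 fold change over the root of F. Alternatives were DESeq2 1.42.0 (Wald test, size factors), limma 3.58.1 on log2(FPKM + 1), no filter, compared groups only, a replicate block, a loess offset (span 0.3) for GC and length, a factor for Rn45s above 5%, and each library left out. Leaving out both Rn45s-rich L/Z libraries was chosen after seeing the data. The script was tested on simulated data.

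The members and lists were chosen with earlier results of these data known. All 10 members are named; of each list, genes that passed (at most 6) and the 2 highest in WT FPKM at a stage. Ccne1, Majin and the 3 L/Z markers named were chosen after their values were seen. Replicates are labelled biological, with no animal given, and libraries of a group differed by more than sampling noise. The tables number replicates from 0, which were matched in order to the labels' numbers from 1. GENCODE M21 and RefSeq on GRCm38.p6 gave positions, GC and overlaps for 98.4% of genes. Intervals cover the spread between libraries, and counts of few fragments are limited by depth.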

Additional observations from a re-analysis of the deposited data

Results flagged for a closer look

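Terf1, the shelterin gene, had 1 outlying library in P0 testes. The first of the 4 Pld6 KO libraries measured 20.1 CPM and the other 3 lay between 23.2 and 23.5 CPM, a gap of 0.936 of the group's whole range, above Dixon's 95% critical value for 4 samples. The group was tested for all 10 genes, and chance marks about 1 in 20. The same library had the lowest sum of 10 prospermatogonial and other germ cell markers of the 4, 124 CPM beside 389 to 467, the highest sum of 6 blood markers, 987 CPM beside 266 to 789, and 6 fragments of Dnmt3l beside 30 to 145. The part of these in its Terf1 level was not tested. No member's effect differed between the stages past the test.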

How the results depend on the processing

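No member's called fold change turned its direction. Of 1956 refitted log2 fold changes of the 10 genes, 161 changed sign, none of them past the test in either fit. For Dnmt3l KO against WT at L/Z, where 2 members were called and 3 at any fold, limma on FPKM called 1, the GC and length offset 1 (1 at any fold), and the fit without both Rn45s-rich libraries 0 (0 at any fold), while DESeq2 gave 5 at any fold; leaving out 1 library gave 0 to 4 by both rules. For Dnmt3l KO against Pld6 KO, with 0 members, DESeq2 and the compared groups alone gave 2 by both rules, and leaving out 1 library 0 to 2. For the Dnmt3l KO difference between stages, with 0, leaving out 1 library gave 0 to 1. All other counts of members stayed at 0 in every fit run. The causes were not tested. Counts over all genes moved more: 802 (1 to 1139) for Dnmt3l KO and 33 (1 to 122) for Pld6 KO against WT at L/Z, 7 (0 to 355) between them, 1 (0 to 14), 0 (0 to 71) and 2 (1 to 102) for Pld6 KO, Dnmt3l KO and DKO against WT at P0, 0 (0 to 6) and 12 (0 to 258) for DKO against the single mutants, 0 (0 to 54) for the interaction and 2 (1 to 45) and 110 (2 to 699) between stages. The GC and length offset moved the median of all genes by 0.123 in the last of these. Replicate numbers did not pair the libraries across all groups. Same-numbered libraries correlated at -0.144 to 0.485 at L/Z and -0.332 to 0.271 at P0, over 0.1 in 2 of 6 and 3 of 13 pairs. Both L/Z pairs over 0.1 were of WT with Pld6 KO, at 0.485, whose first libraries were the 2 rich in Rn45s. With 2 libraries in a group their deviations from the group mean mirror each other, so these pairs hold the same value. With a replicate block Dnmt3l KO against WT at L/Z again gave 2 members, Ccdc79 at 1.45 and Spdya at 1.60, with 912 genes in all, and no count of members changed, while counts over all genes went from 7 to 4 between the L/Z mutants, from 1 to 0 and 2 to 12 for Pld6 KO and DKO against WT at P0, from 12 to 0 for DKO against Dnmt3l KO and from 110 to 28 between stages for Dnmt3l KO. Precision was limited by 2 libraries in most groups and, at P0, by 3 to 16 fragments per WT library for Ccdc79 and Ccdc155. Fitted on the compared groups alone, Ccdc79 was dropped by the filter in 4 of the 5 P0 comparisons, and no value was obtained there.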
